A study of Mus musculus with 6 samples.

Results

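Isolated CpGs are CpG sites with few or no other CpGs around them, the sparsest setting in which a DNA methyltransferase can meet its substrate. A site was taken as isolated when the deposited site table held 1 to 4 CpG sites within 500 bp on each side, itself included, which is called its density here. It also had to lie on an autosome and to carry at least 5 reads in each of 3 cell lines and at most 45 (DNMT3A2), 40 (DNMT3B1) and 80 reads (SETD2 knockout). These rules were met by 352266 sites, out of 20782144 sites in all and 7047535 autosomal sites that met the same coverage rule. The members were defined by position and coverage, not by their methylation.

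The data are whole-genome bisulfite sequencing of mouse embryonic stem cells that are null for DNMT1, DNMT3a and DNMT3b, so that the enzyme put back was the only one of this family described for the line. The DNMT3A2 line expressed DNMT3A2 and the DNMT3B1 line expressed DNMT3B1, both on the triple-null background. The SETD2 knockout line was likewise triple-null and expressed DNMT3B1, with SETD2 deleted as well. The 6 labelled samples are 2 sequencing runs per line, and the labels describe cultures on feeder cells or gelatine without naming separate cultures or clones. Each line therefore counts as 1 library, no test between lines was possible, and intervals cover counting error within a library only.

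DNMT3A and DNMT3B place methyl groups on unmethylated CpGs, whereas DNMT1 copies existing marks onto the new strand after replication. Without DNMT1 a mark is diluted at each cell division unless it is placed again. SETD2 trimethylates a lysine of histone H3 (the mark H3K36me3) across transcribed gene bodies, a modification that the PWWP domain of DNMT3B can bind. CpG islands usually stay free of methylation, while most other CpGs of a mammalian genome, including the lone CpGs of AT-rich DNA, are methylated in ordinary cells.

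Of 1970253 autosomal sites of density 1 to 4, 17.9% met the coverage rule, against 26.8% of sites of density 5 to 9 and 41.6% of those of density 10 to 19. The share was 13.8% at density 1 and 19.5% at density 4. Coverage in the DNMT3A2 and DNMT3B1 lines left 792448 of the 1970253 sites (40.2%). The knockout listing, which starts at 10 reads, held 29.8% of all sites of density 1 to 4. Reads over members summed to 4069348 (DNMT3A2), 3937112 (DNMT3B1) and 5981526 (SETD2 knockout). Their mean coverage was 11.6, 11.2 and 17.0 reads in this order, against 13.2, 12.8 and 19.03 at density 10 to 19. Chromosomes 6, 8 and 11 held 29.4% of the members but 15.5% of all sites of this density. Mean coverage of members there was 13.5, 12.9 and 18.9 reads, against 10.7, 10.5 and 16.2 on the other 16 autosomes. Member levels on these 3 chromosomes were 5.54%, 2.74% and 6.47%, and on the others 5.66%, 2.87% and 6.57%. Density 1 made up 13778 members, density 2 51436, density 3 110211 and density 4 176841. The median distance to the nearest CpG was 125 bp. The median member had 684 CpG sites in the surrounding 100 kb, against 1126 for all autosomal sites under the coverage rule.

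At isolated CpGs the SETD2 knockout line, not the DNMT3A2 line, carried the most methylation. The level, methylated reads over all reads, was 5.62% with DNMT3A2 (exact 95% binomial interval 5.60% to 5.64%). With DNMT3B1 it was 2.83% (2.81% to 2.84%), and in the SETD2 knockout 6.53% (6.52% to 6.55%). The knockout level was 1.16 times the DNMT3A2 level (95% interval 1.15 to 1.17, taken over clusters of 1 kb) and lay above it on 19 of 19 autosomes, where the ratio ranged from 1.08 to 1.23. At density 10 to 19 the same ratio was 0.756. The quotient of the 2 ratios was 1.54 (1.52 to 1.55) and exceeded 1 on every one of the 19 autosomes. A knockout level above that of DNMT3A2 was not particular to isolated CpGs. The ratio was also above 1 at density 40 to 59 (1.26) and at 60 and more (2.21), where levels were low.

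The DNMT3B1 level at isolated CpGs was 0.503 times the DNMT3A2 level (0.497 to 0.509), with a range of 0.466 on chromosome 11 to 0.538 on chromosome 7. At density 10 to 19 it was 0.361 times, a quotient of 1.39 (1.38 to 1.41). The knockout over DNMT3B1 ratio differed less between the densities. It was 2.31 at isolated CpGs (2.28 to 2.34; autosomes 2.10 to 2.40) and 2.09 at density 10 to 19, a quotient of 1.10 (1.09 to 1.12). Relative to sites of density 10 to 19, the level of isolated CpGs was lowest in the DNMT3A2 line. Members stood at 0.613 times the level of density 10 to 19 with DNMT3A2 (0.608 to 0.618), at 0.854 with DNMT3B1 (0.845 to 0.864) and at 0.943 in the knockout (0.937 to 0.949). With the same mix of surroundings, by quintiles of the CpG count of 100 kb described further on, these ratios were 0.794, 0.978 and 1.02, so that the knockout ratio passed to the other side of 1. Other dense classes compared differently. At density 20 to 39 the levels were 6.76%, 2.45% and 5.04%, so members lay above that class with DNMT3B1 and in the knockout. At density 60 and more they were 0.210%, 0.153% and 0.463%, below the members in each line.

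**Figure D1:**
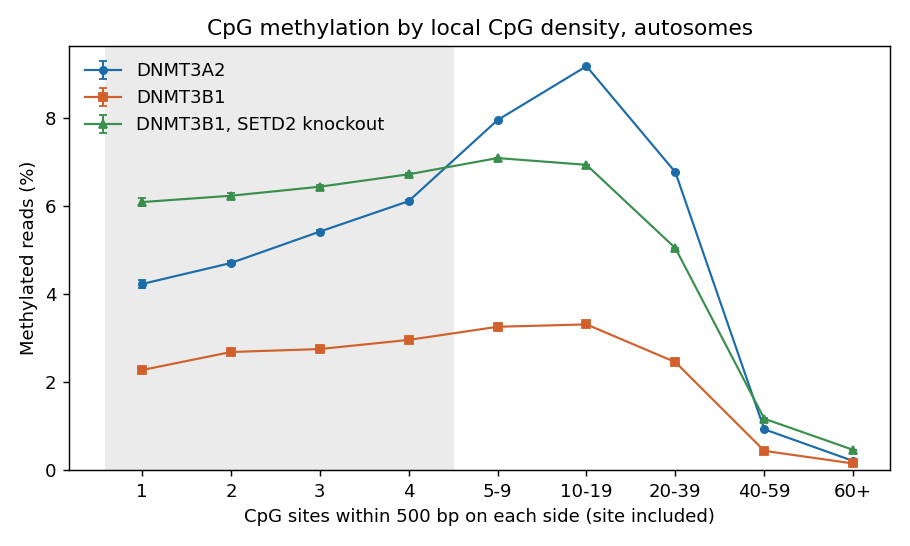
Methylated reads (%) of each line against the number of CpG sites within 500 bp on each side, with exact 95% binomial intervals (bars, mostly smaller than the markers); the shaded classes are the isolated CpGs. From density 1 to density 4 the DNMT3A2 level goes from 4.23% to 6.11%. The SETD2 knockout lies above DNMT3A2 in all 4 shaded classes. It lies below DNMT3A2 in the pooled classes of 5 to 9, 10 to 19 and 20 to 39 CpGs. At low levels it lies above again, at 40 to 59 CpGs (1.17% against 0.930%) and at 60 and more (0.463% against 0.210%).

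Within isolated CpGs the level followed density in each line. With DNMT3A2 it was 4.23% at density 1 (4.13% to 4.33%), 4.70% at density 2, 5.42% at density 3 and 6.11% at density 4 (6.07% to 6.14%). With DNMT3B1 it was 2.27% (2.20% to 2.35%), 2.68%, 2.75% and 2.96% (2.93% to 2.98%). In the SETD2 knockout it was 6.09% (5.99% to 6.18%), 6.23%, 6.43% and 6.72% (6.69% to 6.74%). These binomial intervals, which take reads as independent, did not overlap between density 1 and density 4 in any line. Density 1 stood at 0.692 times density 4 with DNMT3A2 (0.663 to 0.722), at 0.769 with DNMT3B1 (0.725 to 0.815) and at 0.906 in the knockout (0.877 to 0.936). The ratio was below 1 on 19, 19 and 17 of the 19 autosomes. Just outside the density limit, sites of density 5 had levels of 6.78%, 3.04% and 6.83%, against 6.11%, 2.96% and 6.72% just inside it.

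Among densities 1 to 4, the knockout over DNMT3A2 ratio was highest at density 1, where a CpG had no neighbour within 500 bp. The knockout level was 1.44 times the DNMT3A2 level at density 1 and 1.10 times at density 4, a quotient of 1.31 (1.24 to 1.38) that exceeded 1 on 19 of 19 autosomes. The knockout over DNMT3B1 ratio was 2.68 at density 1 and 2.27 at density 4, a quotient of 1.18 (1.11 to 1.26) that exceeded 1 on 16 autosomes. For DNMT3B1 over DNMT3A2 the quotient was 1.11 (1.04 to 1.19), above 1 on 15 autosomes.

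The level also rose with the CpG count of the surrounding 100 kb, in all 3 lines. Members were divided into quintiles by the number of CpG sites within 50 kb on each side, from 195 to 503 sites in the lowest to 974 to 3471 in the highest. With DNMT3A2 the level went from 3.28% (3.24% to 3.32%) in the lowest quintile through 4.17%, 5.43% and 6.88% to 7.76% (7.71% to 7.82%) in the highest. With DNMT3B1 it went from 2.16% (2.12% to 2.19%) through 2.49%, 2.81% and 3.18% to 3.35% (3.32% to 3.39%). In the SETD2 knockout it went from 5.50% (5.46% to 5.54%) through 6.10%, 6.60% and 6.99% to 7.28% (7.24% to 7.32%). Binomial intervals of adjacent quintiles, which take reads as independent, did not overlap in any line.

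The highest over lowest quintile ratio was 2.36 with DNMT3A2 (2.30 to 2.43) and 1.55 for DNMT3B1 (1.50 to 1.61), while the knockout ratio was 1.32 (1.298 to 1.35). All 19 autosomes had a ratio above 1 in each line, ranging from 1.958 to 2.73, from 1.301 to 1.80 and from 1.14 to 1.43. DNMT3A2 and the knockout changed places along this range. In the lowest quintile the knockout stood at 1.68 times DNMT3A2, above 1 on 19 of 19 autosomes. In the highest it stood at 0.938 times, below 1 on 19 of 19. The quotient was 1.79 (1.73 to 1.84). DNMT3B1 over DNMT3A2 went from 0.657 in the lowest quintile to 0.432 in the highest, a quotient of 1.52 (1.46 to 1.58). The knockout over DNMT3B1 ratio went from 2.55 to 2.17, a quotient of 1.17 (1.13 to 1.22).

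**Figure D2:**
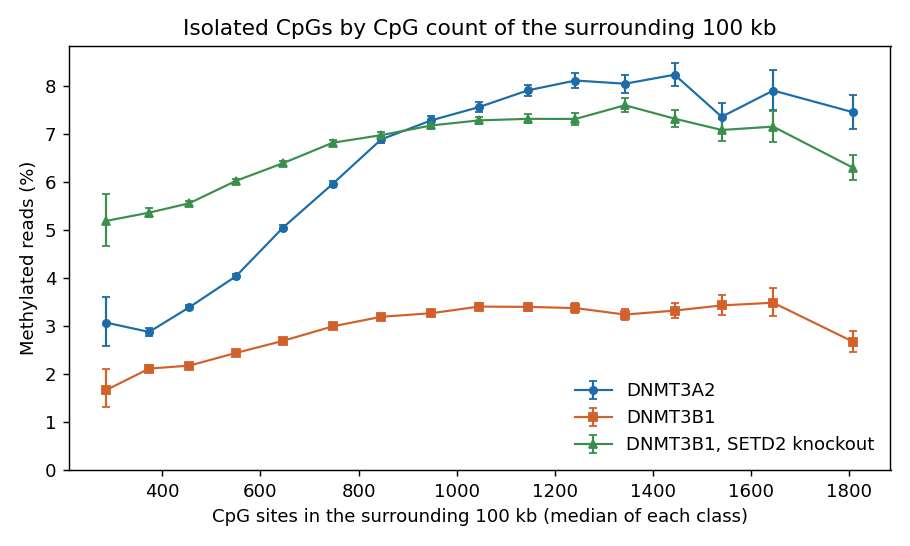
Methylated reads (%) at isolated CpGs against the CpG count of the surrounding 100 kb, in classes of 100 CpG sites with open-ended first and last classes and exact 95% binomial intervals. The DNMT3A2 curve climbs from 2.88% at 300 to 399 CpG sites to 8.11% at 1200 to 1299 and crosses the SETD2 knockout curve between the classes starting at 800 and 900 sites.

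In finer classes the DNMT3A2 level was 2.88% at 300 to 399 CpG sites per 100 kb and 5.05% at 600 to 699. It reached 7.28% at 900 to 999 and 8.11% at 1200 to 1299. The knockout level in the same classes was 5.36%, 6.39%, 7.18% and 7.31%, and the DNMT3B1 level 2.12%, 2.69%, 3.27% and 3.38%. From 1700 CpG sites upward, in 1510 members, the levels were 7.45%, 2.67% and 6.29%.

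Coverage moved with the quintiles. Mean DNMT3A2 coverage was 10.5 reads in the lowest and 12.9 in the highest, with 10.2 and 12.4 for DNMT3B1 and 15.5 and 19.04 for the knockout. Among members with 5 to 7 DNMT3A2 reads the highest over lowest quintile ratio of that line was 2.44, and among those with 15 to 20 reads 2.28. The corresponding ratios were 1.68 and 1.48 for DNMT3B1, and 1.31 at 10 to 11 reads and 1.33 at 19 to 25 reads for the knockout. The highest quintile thus lay above the lowest in each of these coverage classes. How much coverage adds to the difference was not tested.

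**Figure D3:**
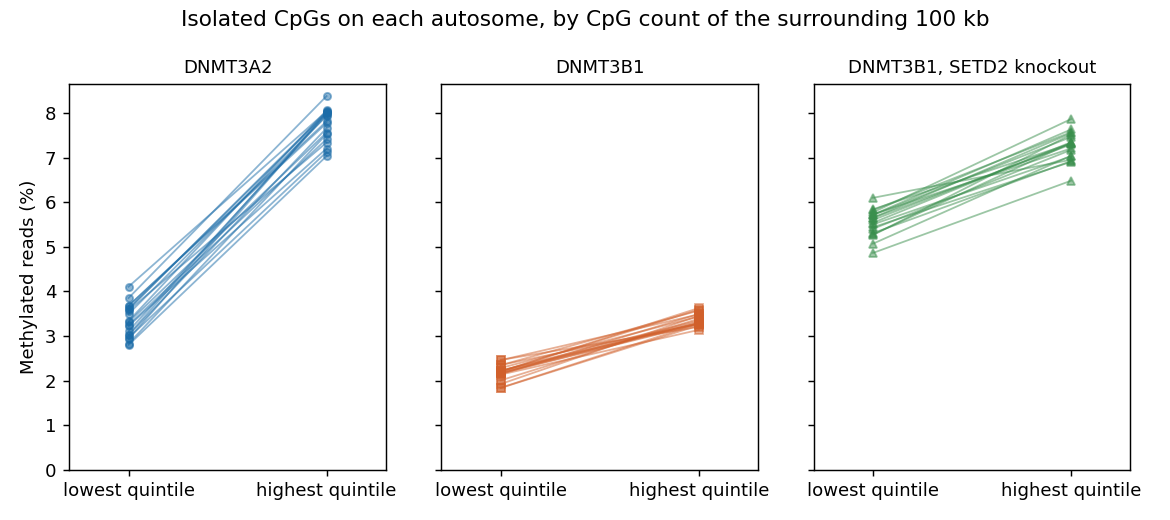
Methylated reads (%) at isolated CpGs in the lowest and the highest quintile of the 100 kb CpG count, 1 line per autosome (19 in each panel), for the 3 cell lines. The DNMT3A2 values lie between 2.80% and 4.11% in the lowest quintile and between 7.04% and 8.39% in the highest, with no overlap, and each line of each panel slopes upward.

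Local density and the 100 kb count were linked, since 32.8% of the density 1 members but 16.3% of the density 4 members lay in the lowest quintile. In the lowest quintile the DNMT3A2 level was 2.99% at density 1 (2.84% to 3.15%) and 3.49% at density 4 (3.42% to 3.56%). In the highest it was 6.85% (6.48% to 7.24%) and 7.98% (7.91% to 8.05%). A CpG alone in its kilobase within a CpG-rich 100 kb was thus more methylated than a density 4 site in a CpG-poor one. The same order held for DNMT3B1, at 2.97% against 2.27%, and for the knockout, at 6.88% against 5.55%. With the same mix of quintiles at both densities, the density 1 over density 4 ratio was 0.812 (DNMT3A2), 0.836 (DNMT3B1) and 0.949 (knockout), each nearer to 1 than without this adjustment.

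The comparison with CpGs of density 10 to 19 also depended on the 100 kb count. In the lowest quintile isolated CpGs stood at 0.544 times the level of density 10 to 19 with DNMT3A2 (0.524 to 0.564), at 0.784 with DNMT3B1 (0.745 to 0.825) and at 0.870 in the knockout (0.845 to 0.895). In the highest quintile they stood at 0.834 times with DNMT3A2 (0.823 to 0.845). With DNMT3B1 the ratio there was 1.01 (0.989 to 1.03), an interval that includes no difference. In the knockout it was 1.06 (1.04 to 1.07), so that isolated CpGs were above the denser class. Sites of density 10 to 19 themselves ranged from 6.04% to 9.31% with DNMT3A2 over the same quintiles.

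Distance to the nearest CpG gave a further, non-monotonic pattern. In members of density 2 to 4 a neighbour within 2 to 19 bp went with 6.61% methylation with DNMT3A2, 3.10% with DNMT3B1 and 6.96% in the knockout. At 200 to 500 bp the levels were 5.41%, 2.79% and 6.48%. The ratio of the far to the near class was 0.818 (0.796 to 0.841), 0.901 (0.867 to 0.936) and 0.930 (0.909 to 0.952), below 1 on 19, 16 and 17 of the 19 autosomes.

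Between these ends the level first went down and then up again in all 3 lines. With DNMT3A2 it was 6.46% at 2 to 24 bp, 5.33% at 75 to 99 bp, 6.10% at 175 to 199 bp, 5.22% at 250 to 274 bp and 5.56% at 350 to 374 bp. With DNMT3B1 these values were 3.06%, 2.73%, 3.10%, 2.81% and 2.86%. In the SETD2 knockout they were 6.92%, 6.29%, 6.84%, 6.23% and 6.54%. The classes compared next were chosen after this curve was seen. Members whose nearest CpG lay 175 to 199 bp away stood at 1.14 times those at 75 to 99 bp with DNMT3A2 (1.10 to 1.19), and the DNMT3B1 ratio was 1.14 (1.08 to 1.202). In the knockout it was 1.09 (1.05 to 1.12). The ratio exceeded 1 on 18, 16 and 18 autosomes. Against 250 to 299 bp the ratios were 1.17 (1.12 to 1.22), 1.10 (1.04 to 1.17) and 1.09 (1.05 to 1.13).

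**Figure D4:**
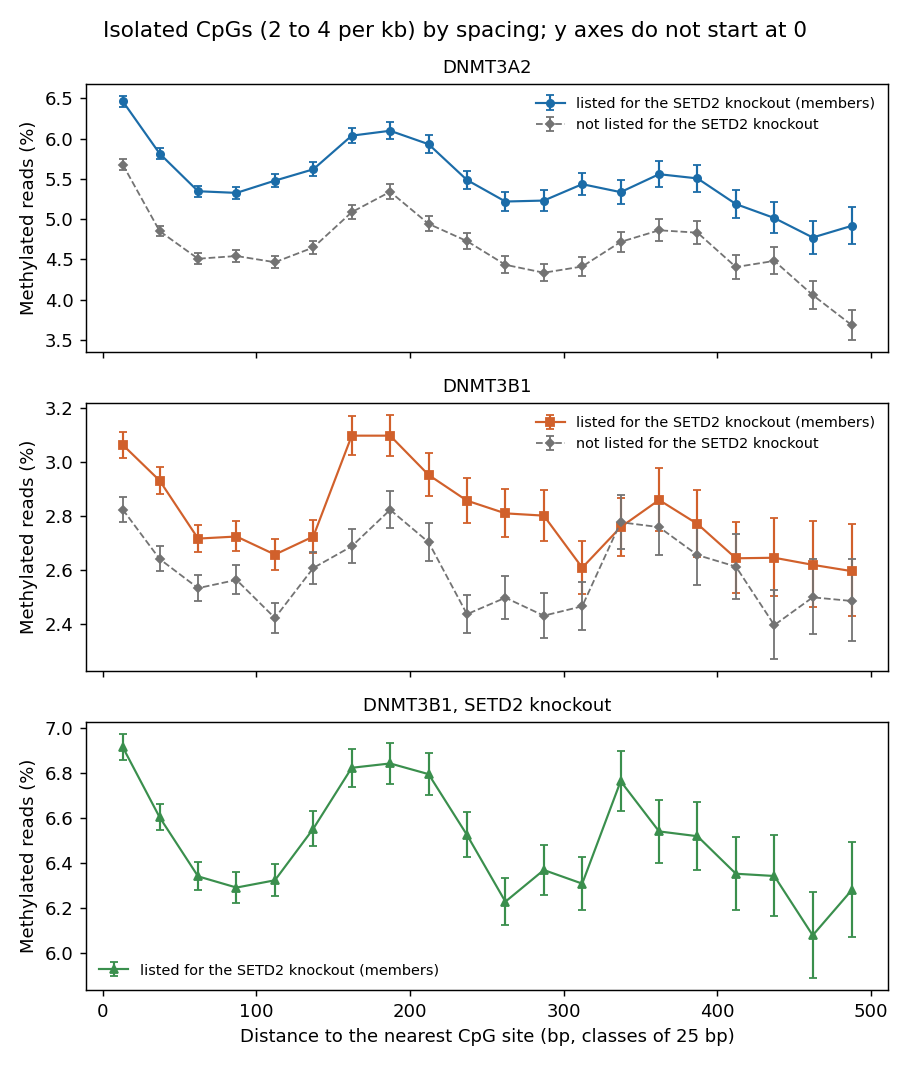
Methylated reads (%) at isolated CpGs of density 2 to 4 against the distance to the nearest CpG in classes of 25 bp, with exact 95% binomial intervals, 1 panel per line and y axes that do not start at 0; grey diamonds are sites of the same density without a listed knockout value. All 3 lines have a low near 75 to 99 bp (DNMT3A2 5.33%) and a second high near 175 to 199 bp (DNMT3A2 6.10%), and the grey curve of DNMT3A2 lies between 4.46% and 4.54% from 50 to 124 bp and at 5.34% at 175 to 199 bp.

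A second return was weaker. At 350 to 399 bp against 250 to 299 bp the ratio was 1.06 with DNMT3A2 (1.01 to 1.11). The intervals of DNMT3B1 (1.00, 0.941 to 1.07) and of the knockout (1.04, 0.999 to 1.08) included 1. With the same mix of densities and quintiles in both classes, these 3 ratios were 1.10, 1.03 and 1.06. Mean coverage differed little between these spacing classes, at 11.5 reads for 175 to 199 bp and 11.6 for 75 to 99 bp in the DNMT3A2 line. With the same mix of densities and quintiles in both classes, the 175 to 199 bp over 75 to 99 bp ratio was 1.17, 1.14 and 1.10. Among density 2 members, whose nearest CpG is the only one within 500 bp, it was 1.21 with DNMT3A2 (1.06 to 1.38) and 1.23 in the knockout (1.11 to 1.35). With DNMT3B1 it was 1.02 with an interval from 0.862 to 1.21 that includes 1.

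Sites that the knockout values did not list gave the same measure outside the members. At sites of density 2 to 4 that met the coverage rule in the DNMT3A2 and DNMT3B1 lines, the 175 to 199 bp over 75 to 99 bp ratio was 1.18 with DNMT3A2 (1.13 to 1.22, above 1 on 19 autosomes) and 1.10 with DNMT3B1 (1.04 to 1.16, on 13). The later return, 350 to 399 bp over 250 to 299 bp, was 1.11 (1.06 to 1.16) and 1.10 (1.03 to 1.17) there. At density 5 to 9 the first ratio was 1.19 (1.17 to 1.21), 1.16 (1.13 to 1.196) and 1.10 (1.09 to 1.12), so the pattern was not particular to isolated CpGs.

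Beyond 500 bp, where every member has density 1, greater isolation went with less methylation by DNMT3A2. The DNMT3A2 level was 4.39% at 501 to 749 bp (4.28% to 4.504%), 3.58% at 750 to 999 bp (3.33% to 3.84%) and 2.57% at 1000 to 1499 bp (2.11% to 3.09%). With DNMT3B1 it was 2.31% (2.23% to 2.40%), 2.13% (1.93% to 2.34%) and 1.76% (1.39% to 2.20%). In the knockout it was 6.14% (6.04% to 6.25%), 5.81% (5.54% to 6.08%) and 5.82% (5.26% to 6.41%). Members at least 1000 bp from the nearest CpG, 441 sites, stood at 0.577 times those at 501 to 749 bp with DNMT3A2 (0.436 to 0.765). For DNMT3B1 (0.770, 0.559 to 1.06) and the knockout (0.926, 0.762 to 1.12) the interval included 1. Of these 441 sites, 213 lay in the lowest quintile of the 100 kb count, and with the same mix of quintiles the DNMT3A2 ratio was 0.691.

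The 5 most distant members, outside chromosome 18, show how little a single site can tell at this depth. The CpG at position 144426767 of chromosome 4 (genome build mm9) lies 2146 bp from the nearest listed CpG and had 0 methylated reads of 10 with DNMT3A2 (exact upper limit 30.8%), 0 of 12 with DNMT3B1 and 0 of 16 in the knockout. The CpG at 39320298 on chromosome 17, with 2082 bp to its nearest neighbour, had 0 of 15, 0 of 20 and 0 of 17. That at 17270993 on chromosome 1 (2054 bp) had 1 of 16, 2 of 21 and 0 of 18. That at 77334488 on chromosome 3 (1900 bp) had 0 of 8 with DNMT3A2, 3 of 19 with DNMT3B1 (15.8%, 3.38% to 39.6%) and 0 of 12 in the knockout. That at 111437576 on chromosome 14 (1867 bp) had 0 of 10, 0 of 13 and 2 of 16. All 5 were unmethylated in most reads of each line. Of their 15 intervals, all but that of the chromosome 3 site with DNMT3B1 include the mean level of the members in that line.

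Most isolated CpGs carried no methylated read, as 71.8% of members with DNMT3A2, 85.3% with DNMT3B1 and 63.5% in the knockout had none. Over all autosomal sites under the coverage rule the shares were 63.2%, 84.2% and 63.8%. These shares also depend on depth. No methylated read in any line was seen at 148912 members (42.3%), a share without a counterpart here over all autosomal sites. Methylation in at least 50% of reads was found at 5126 members with DNMT3A2 (1.46%), 2550 with DNMT3B1 (0.724%) and 4966 in the knockout (1.41%). The shares over all autosomal sites were 2.01%, 0.591% and 1.06%. The members lay below them with DNMT3A2 and above them with DNMT3B1 and in the knockout. These shares depend on depth as well. Mean coverage was 11.6, 11.2 and 17.0 reads at members and 13.0, 12.7 and 18.9 over all sites. The shares over all sites also take in sites of density 40 and more, where levels were low. At density 10 to 19 the shares were 2.60%, 0.692% and 1.23%, and density 1 members had 1.03%, 0.523% and 1.35%. With DNMT3B1 the members were thus near density 10 to 19, and density 1 lay below the share over all sites.

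Sites highly methylated in 1 line were mostly not so in the others. At the 5126 members with at least 50% methylation with DNMT3A2, the mean of the site levels was 4.31% with DNMT3B1 and 8.86% in the knockout. These values are 1.54 and 1.35 times the means of those lines over all members. At the 2550 members with at least 50% in the DNMT3B1 line it was 7.69% with DNMT3A2, 1.40 times its mean, and 11.9% in the knockout, 1.82 times. At the 4966 such members of the knockout it was 5.97% with DNMT3B1, 2.14 times its mean, and 7.57% with DNMT3A2, 1.38 times. The multiples between the 2 lines that express DNMT3B1, 1.82 and 2.14, were above the other 4, a difference that was not tested. At density 10 to 19 they were 1.80 and 2.13, again the highest, so this order was not particular to isolated CpGs. It did not hold at density 1, where they were 2.09 and 2.81. There DNMT3B1 stood at 2.22 times its mean at the DNMT3A2 sites, and DNMT3A2 at 2.14 times at the DNMT3B1 sites. Across the 352266 members the correlation of site levels without counting error was 0.145 between DNMT3B1 and the knockout and 0.0814 between DNMT3B1 and DNMT3A2. These are weak correlations between points that share positions and the mappability of their reads. At least 50% in all 3 lines was found at 13 of the 352266 members and at 52 of 3133441 sites of density 10 to 19.

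Relative to the mean level, spread between sites beyond that expected from counting was largest in the DNMT3B1 line. That line also had the lowest mean of site levels, 2.79% against 5.50% (DNMT3A2) and 6.56% (knockout). A lower mean raises the measure used here, so its order need not be that of the variance itself. The same holds between density classes. The relative variance, the variance of the site level over the square of its mean, was 2.89 (DNMT3A2), 6.35 (DNMT3B1) and 2.49 (knockout). It was 3.85, 7.57 and 2.73 at density 1. At density 10 to 19 it was 1.54, 4.79 and 2.07. Reads amplified from 1 molecule would add to these values and could not be recognised in the counts.

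Single members of density 1 are described outside chromosome 18, among the 4041 with at least 10 reads in each line. Of the 4041, 135 had a methylated read in all 3 lines and 1687 in none. These counts depend on depth and have no counterpart here over all autosomal sites, so they do not set isolated CpGs apart. The values of the members described below were used to choose them and are descriptions. The CpG at 101926344 on chromosome 7, 922 bp from its nearest neighbour, was methylated in 15 of 15 reads with DNMT3A2, 25 of 25 with DNMT3B1 and 10 of 10 in the knockout. It was the only member at 90% or more in all 3 lines, and 2 of all autosomal sites under the coverage rule were. The CpG at 16397166 on chromosome 4 (952 bp) followed with 8 of 11, 7 of 12 and 13 of 21 reads. Those at 105057772 on chromosome 11, 121155395 on chromosome 2 and 146985417 on chromosome 6 had between 20% and 33.3% in each line.

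Other density 1 members differed between lines. At 48666810 on chromosome 3 there was 0 of 10 methylated reads with DNMT3A2, 4 of 12 with DNMT3B1 and 6 of 15 in the knockout. At 16441318 on chromosome 5 the counts were 0 of 15, 4 of 13 and 6 of 18, and at 15489652 on chromosome 16 they were 0 of 17, 3 of 10 and 7 of 17. The opposite order was seen at 90703841 on chromosome 5, with 14 of 16 reads (87.5%, 61.7% to 98.4%) with DNMT3A2, 0 of 13 with DNMT3B1 (upper limit 24.7%) and 0 of 13 in the knockout. At 16774277 on chromosome 19 the counts were 9 of 11, 0 of 17 and 0 of 10, and at 62640653 on chromosome 13 they were 9 of 12, 0 of 11 and 0 of 13. Positions are start positions as the deposited tables give them in build mm9, without gene annotation. Whether they count from 0 or 1 was not checked against a genome, so each may be off by 1 base.

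Isolated CpGs were also summed over windows of 1 Mb. Windows with at least 200 members numbered 379 and held 113208 members. Of these windows 276 lay on chromosomes 6, 8 and 11, whose deeper coverage let more members pass. The DNMT3A2 level ranged from 1.12% to 12.2%, with a median of 5.46%, and from 2.73% to 7.88% between the 10th and 90th percentile. The DNMT3B1 level ranged from 0.941% to 4.78% with a median of 2.64%, and the knockout level from 3.86% to 9.17% with a median of 6.42%. The knockout lay above DNMT3A2 in 288 windows (76.0%), whereas the sites of density 5 and more in the same windows did so in 28.5%. DNMT3B1 lay above DNMT3A2 in 16 windows (4.22%, against 0.264% for the denser sites), 14 of them on chromosomes 6, 8 and 11. The knockout lay above DNMT3B1 in all 379, as it did for the denser sites (100%). These counts take the level of each window without its counting error, which was not compared between members and denser sites.

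**Figure D5:**
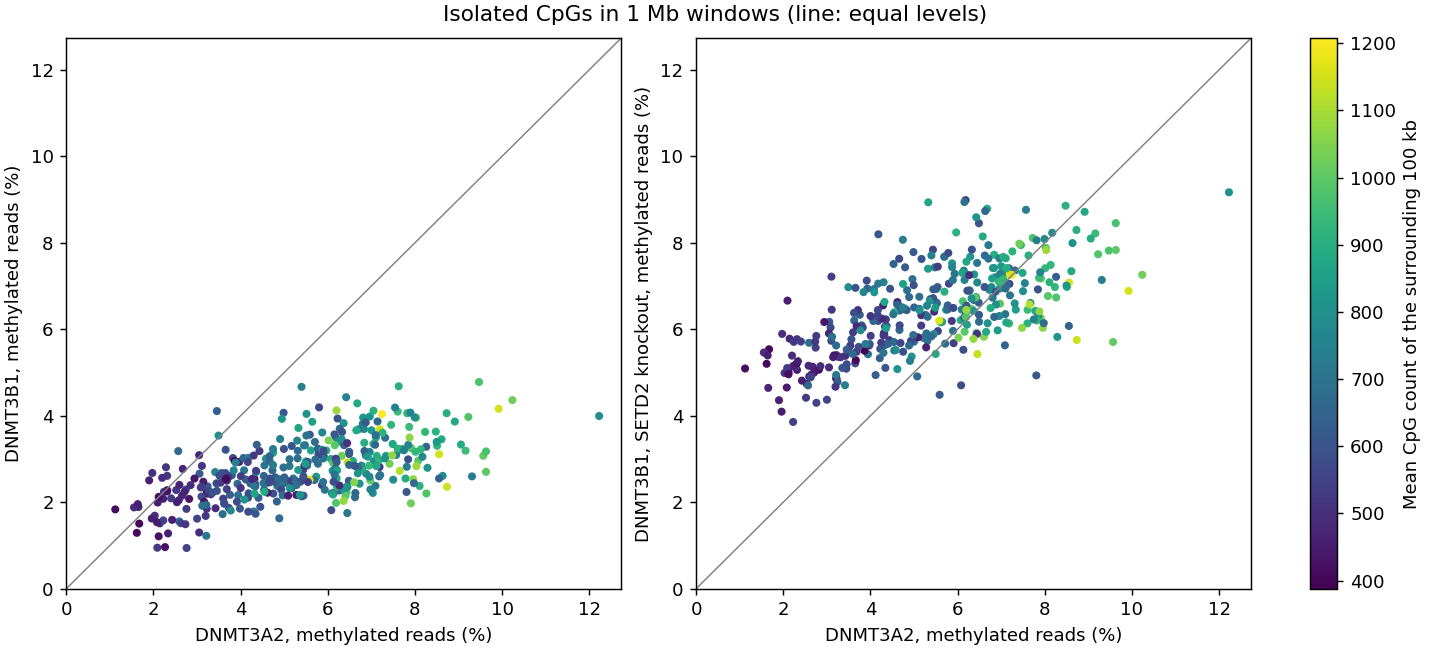
Methylated reads (%) at isolated CpGs in 379 windows of 1 Mb, DNMT3A2 on the x axis against DNMT3B1 (left) and the SETD2 knockout (right), coloured by the mean CpG count of the surrounding 100 kb; the line marks equal levels. In 16 windows DNMT3B1 and in 288 windows the knockout lies above the line, and the windows at the low end of the DNMT3A2 axis are CpG-poor.

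The 3 windows at each end of the DNMT3B1 over DNMT3A2 ratio are given here, and the median window had a mean of 676 CpG sites per 100 kb. On chromosome 6 from 110000001 to 111000000, 387 members with a mean of 414 CpG sites per 100 kb had 1.12% with DNMT3A2 (49 of 4359 reads). The DNMT3B1 level there was 1.83% (75 of 4088) and the knockout level 5.09% (314 of 6165). On chromosome 8 the window from 54000001 had 1.97%, 2.68% and 5.89%, and that from 65000001 had 1.90%, 2.51% and 4.36%. The DNMT3B1 over DNMT3A2 ratios of these 3 windows were 1.63, 1.36 and 1.32, each with an interval that included 1. At the other end, the window on chromosome 6 from 85000001 to 86000000, with a mean of 1027 CpG sites per 100 kb, had 7.91% with DNMT3A2 (322 of 4072 reads). The DNMT3B1 level there was 1.97% (80 of 4051) and the knockout level 6.26%. Its ratio was 0.250 (0.179 to 0.349). The windows on chromosome 11 from 62000001 and on chromosome 2 from 180000001 had ratios of 0.267 and 0.270. The windows were ranked on these ratios, which are therefore descriptions.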

How the data were processed

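Per the file headers, the deposited series table gives a count of total reads and a count of methylated reads per CpG site for the DNMT3A2 and the DNMT3B1 line, with the line but not the run named, and the runs of a line are treated as summed. The authors' knockout values give the same counts and their fraction, which equalled methylated over total reads at each site listed, and list only sites with at least 10 reads. The 2 knockout files were identical and were counted as 1 sample. Positions refer to mm9, as the submitters' processing notes state. No aligner, caller or duplicate step is named (not given in the sources used here), so amplified duplicates may be in the counts.

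Levels are pooled methylated over total reads with exact (Clopper-Pearson) 95% binomial intervals. These take reads as independent and leave out the spread between sites. Intervals of ratios were linearised over clusters of 1 kb, and autosome ranges describe spread along the genome, not replicates. Named sites were chosen by distance, by the lowest of the 3 levels and by the difference between lines, and windows by ratio. Estimates of ratios, of variance and of covariance between lines at the same site were tested on simulated data. Sites were drawn independently there. The simulation therefore could not test the intervals where sites within 1 kb move together, or the covariance of neighbouring members. Coverage limits, weighting, background, density window and the lines required were varied. The members and classes were chosen with earlier results of these data known. The software was scipy 1.17.1 with numpy 2.4.6 under Python 3.11.15, pandas 2.3.3 for tables and matplotlib 3.10.9 for plots.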

Additional observations from a re-analysis of the deposited data

Results flagged for a closer look

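Sites of density 1 to 4 that met the coverage rule in the DNMT3A2 and DNMT3B1 lines but had no listed knockout value, 440104 in number, carried signal that the comparisons of 3 lines did not use. Their level was 4.74% with DNMT3A2 (exact 95% binomial interval 4.72% to 4.76%) and 2.60% with DNMT3B1 (2.58% to 2.61%), against 5.62% and 2.83% at the members. Mean DNMT3A2 coverage was 9.78 reads, against 11.6 at the members. More of them lay in CpG-poor surroundings, with 138456 in the lowest quintile of the members' 100 kb count and 42230 in the highest. Inside the lowest quintile the levels were 3.04% and 2.11%, against 3.28% and 2.16% at the members, and inside the highest 7.72% and 3.28%, against 7.76% and 3.35%.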

How the results depend on the processing

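The 12 ratios (3 between lines, and for each line the density, distance and quintile ratios) kept their direction under all 123 alternative values. Of these, 76 stayed inside the 95% interval of the reported ratio and 47 moved out of it, by at most 1.27-fold, and the cause was not tested.

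With at least 10 reads in each line, the ratio between lines was 0.489 (DNMT3B1 over DNMT3A2) and 1.13 (SETD2 knockout over DNMT3A2), and the highest over lowest quintile ratio was 2.22 (DNMT3A2), 1.4 (DNMT3B1) and 1.27 (SETD2 knockout). With at least 1 read in the DNMT3A2 and DNMT3B1 lines, the ratio between lines was 0.513 (DNMT3B1 over DNMT3A2) and 1.18 (SETD2 knockout over DNMT3A2). With at most 2 times the median coverage of sites with reads, the ratio between lines was 0.512 (DNMT3B1 over DNMT3A2), 2.35 (SETD2 knockout over DNMT3B1) and 1.2 (SETD2 knockout over DNMT3A2). With the mean of site levels, the ratio between lines was 2.35 (SETD2 knockout over DNMT3B1) and 1.19 (SETD2 knockout over DNMT3A2). With the level of sites of density 60 and more subtracted (0.210%, 0.153% and 0.463%), the ratio between lines was 0.494 (DNMT3B1 over DNMT3A2), 2.27 (SETD2 knockout over DNMT3B1) and 1.12 (SETD2 knockout over DNMT3A2), and the highest over lowest quintile ratio was 2.46 (DNMT3A2) and 1.35 (SETD2 knockout). With density counted within 250 bp (1 or 2 sites, density 1 over 2), the ratio between lines was 0.463 (DNMT3B1 over DNMT3A2), 2.26 (SETD2 knockout over DNMT3B1) and 1.04 (SETD2 knockout over DNMT3A2), the density 1 over density 4 ratio was 0.876 (DNMT3A2), 0.926 (DNMT3B1) and 0.962 (SETD2 knockout), and the highest over lowest quintile ratio was 1.5 (DNMT3B1) and 1.27 (SETD2 knockout). With density counted within 1000 bp (1 to 8 sites, density 1 or 2 over 7 or 8), the ratio between lines was 0.553 (DNMT3B1 over DNMT3A2), 2.38 (SETD2 knockout over DNMT3B1) and 1.31 (SETD2 knockout over DNMT3A2), the density 1 over density 4 ratio was 0.546 (DNMT3A2) and 0.842 (DNMT3B1), the 200 to 500 bp over 2 to 19 bp ratio was 0.957 (SETD2 knockout), and the highest over lowest quintile ratio was 2.14 (DNMT3A2), 1.46 (DNMT3B1) and 1.25 (SETD2 knockout). With coverage asked only of the lines compared, the ratio between lines was 0.524 (DNMT3B1 over DNMT3A2) and 1.18 (SETD2 knockout over DNMT3A2), the 200 to 500 bp over 2 to 19 bp ratio was 0.796 (DNMT3A2), and the highest over lowest quintile ratio was 2.56 (DNMT3A2). At 8 to 14 reads (knockout 10 to 18), the ratio between lines was 0.519 (DNMT3B1 over DNMT3A2), 2.37 (SETD2 knockout over DNMT3B1) and 1.23 (SETD2 knockout over DNMT3A2), and the density 1 over density 4 ratio was 0.638 (DNMT3A2) and 0.855 (SETD2 knockout). With the same mix of quintiles, the density 1 over density 4 ratio was 0.812 (DNMT3A2), 0.836 (DNMT3B1) and 0.949 (SETD2 knockout). Without chromosomes 6, 8 and 11, the highest over lowest quintile ratio was 2.28 (DNMT3A2).

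The coverage band, the same mix of quintiles and the removal of chromosomes 6, 8 and 11 were chosen after seeing the data. The distance ratio was not run with density within 250 bp, and the planned flanking bases were not run. Leaving out a run was not possible because the values come pooled per line. No paired analysis was possible because each line is 1 library. Depth limits single sites most, since at 10 reads a count of 0 allows a level of up to 30.8%.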

Other observations

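The levels of neighbouring members moved together. The relative covariance is the mean product of the levels of 2 consecutive members over the product of their means, minus 1. For 13373 pairs 2 to 19 bp apart, which share reads, it was 1.28 (DNMT3A2), 1.25 (DNMT3B1) and 0.767 (SETD2 knockout). At 20 to 49 bp it was 0.811, 0.982 and 0.388, at 50 to 99 bp 0.400, 0.432 and 0.0549, at 100 to 199 bp 0.402, 0.435 and 0.111, and at 200 to 399 bp 0.336, 0.167 and 0.0505. At 400 to 999 bp it was 0.292, 0.164 and 0.0539 in 46377 pairs, at 1000 to 4999 bp 0.240, 0.0219 and 0.0432, and at 5000 to 49999 bp 0.230, 0.0702 and 0.0301. The DNMT3B1 value was the highest of the 3 lines from 20 to 199 bp and the DNMT3A2 value from 200 bp on. These differences were not tested. Pairs more than 19 bp apart can share reads too. Counting error from shared reads was not removed, and how much it adds to these values or to the order of the lines was not tested.

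The size of the window in which CpGs were counted mattered little. Members above the highest and up to the lowest quintile limit were compared in windows of 2 kb to 2000 kb. The ratio of their levels lay between 2.05 and 2.45 (DNMT3A2), 1.41 and 1.55 (DNMT3B1) and 1.27 and 1.37 (knockout). For DNMT3A2 both ends lie outside the 95% interval of the 100 kb ratio (2.30 to 2.43). Members with equal counts were not split, so at 2 kb the low group held 98006 members and the high group 58419. The windows are nested, so these values are not independent of each other.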
